A study of Rattus norvegicus with 2 samples.

Results

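Chemokines are small secreted proteins that guide moving leukocytes, and their receptors are membrane proteins of leukocytes, endothelium and neurons. The genes described here are the rat chemokines and chemokine receptors, chosen by symbol (Ccl, Cxcl, Xcl and Cx3cl ligands, Ccr, Cxcr, Xcr and Cx3cr receptors, the atypical receptors Ackr, and Ccrl2). They were measured in intracranial arterial tissue of rats on 2 one-colour Agilent arrays, 1 array of untreated arterial wall labelled normal and 1 array of an aneurysm lesion collected 3 weeks after its induction (control and lesion below). The RefSeq gene table holds 58 such genes, and 54 of them had a probe matched by accession, out of 15159 genes with a matched probe. Of the 54 genes, 33 encode ligands, 18 signalling receptors and 3 atypical receptors. The sources used here do not state strain, sex, age, the way the aneurysm was induced or how many animals stand behind each library. The comparison asks how the lesion differs from normal arterial wall. With 1 array a group there is no replicate check and no test, and each difference describes these 2 libraries.

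Ligands with adjacent first cysteines (CC, genes Ccl) act mainly on monocytes, lymphocytes and eosinophils, and those with 1 residue between them (CXC, genes Cxcl) on neutrophils, T cells or B cells. Each ligand binds G-protein coupled receptors of its class, one ligand often using several receptors, and the atypical receptors take up ligands without starting G protein signals. In diseased artery the best studied member is Ccl2, or MCP-1, which draws monocytes carrying Ccr2 into the wall, where they become macrophages.

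Both arrays lay on 1 slide and were read in 1 scan. A signal below is the processed spot intensity divided by the 75th percentile of the array's non-control spots (621 for the control and 801 for the lesion array), so that a value of 1 equals that percentile. It serves to compare the libraries at 1 probe and not to compare genes. A difference is the log2 signal of the lesion minus that of the control. The figure given after ± is a spot error, taken from the spread of repeat spots within an array pooled over probes of like signal, and it holds no variation between animals. The tissue labels were checked against markers: all 8 smooth muscle and all 9 matched endothelial markers were well above background on both arrays. The control library labelled arterial wall also held transcripts typical of other organs. The summed signal of the 13 measured hepatocyte markers was 48.7 in the control and 8.72 in the lesion, that of 6 pituitary markers 10.3 and 2.44, and that of 8 oligodendrocyte markers 168 and 85.4. All 13 measured hepatocyte markers were at least 2-fold lower in the lesion, with a median of -4.81, while Tat and Cps1 were well above background on neither array. The part of these tissues in the chemokine differences was not tested.

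Of the 54 genes, 41 were well above background on at least 1 array, 35 of them on both, and these 41 have a difference. Ccl2 alone was at least 2-fold higher in the lesion, where the share over all 11902 genes with a difference was 0.882%. Ccl9, Ccl12, Cxcl6 and Cxcr2 were at least 2-fold lower, where the share over all genes was 3.91%. Of these, Cxcl6 and Cxcr2 were well above background in the control only and lay within 2 spot errors of 0. At 1.5-fold there were 6 higher genes (4.25% of all genes) and 7 lower genes (8.43% of all genes). The 41 genes had a median of 0.04 beside 0.00 for all genes, and 23 of the 41 were above 0 beside 50.2% of all genes. The family as a whole lay near all genes, and its median was -0.14 with normexp background correction (all genes -0.06), -0.01 with the percentile taken over detected probes (all genes -0.05) and 0.16 with quantile normalization (all genes 0.02). Many members were dim: 21 of the 41 lay in the lowest quartile of genes by signal, and all 4 of the lower genes past 2-fold were there. In that quartile 11.3% of all genes were at least 2-fold lower and 2.54% at least 2-fold higher. At 1.5-fold the shares there were 21% lower and 9.85% higher, beside 5 lower and 2 higher among the 21 members. The 26 measured ligands had a median of 0.11 with 15 above 0, the 13 measured signalling receptors a median of -0.06 with 6 above 0, and both measured atypical receptors were above 0. Scaling by the spike-in controls raised the median of all genes to 0.30, so that values under it are read against that shift; over all genes the lower share of the 2-fold calls was 81.6% as reported, 51.6% with spike-in scaling, 71.1% with quantile normalization and 93.0% with normexp. Apart from spike-in scaling, 9 of the 41 genes, all within 1.5-fold, had the opposite sign under at least 1 alternative, among them Ccl3, Cxcl2, Cxcl9, Cxcl17, Ccr1, Ccr1l1, Ccr6 and Ccrl2, and no direction is read from these. In bulk tissue, fewer cells of a type and less RNA per cell cannot be told apart.

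**Figure D1:**
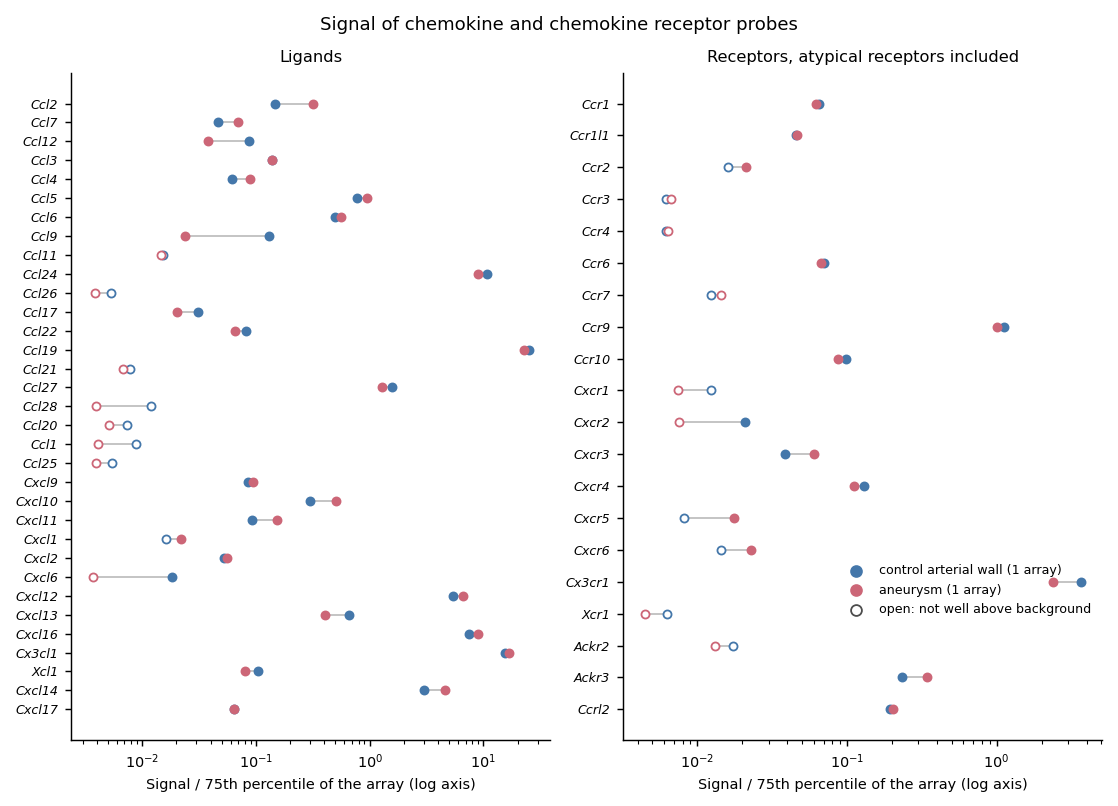
Signal of chemokine and chemokine receptor genes on the control array (blue) and the aneurysm array (red), as a multiple of the array's 75th percentile on a log axis. Open circles are probes not well above background; Ccl2, Ccl9 and Ccl12 have the widest gaps among genes measured on both arrays.

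**Figure D2:**
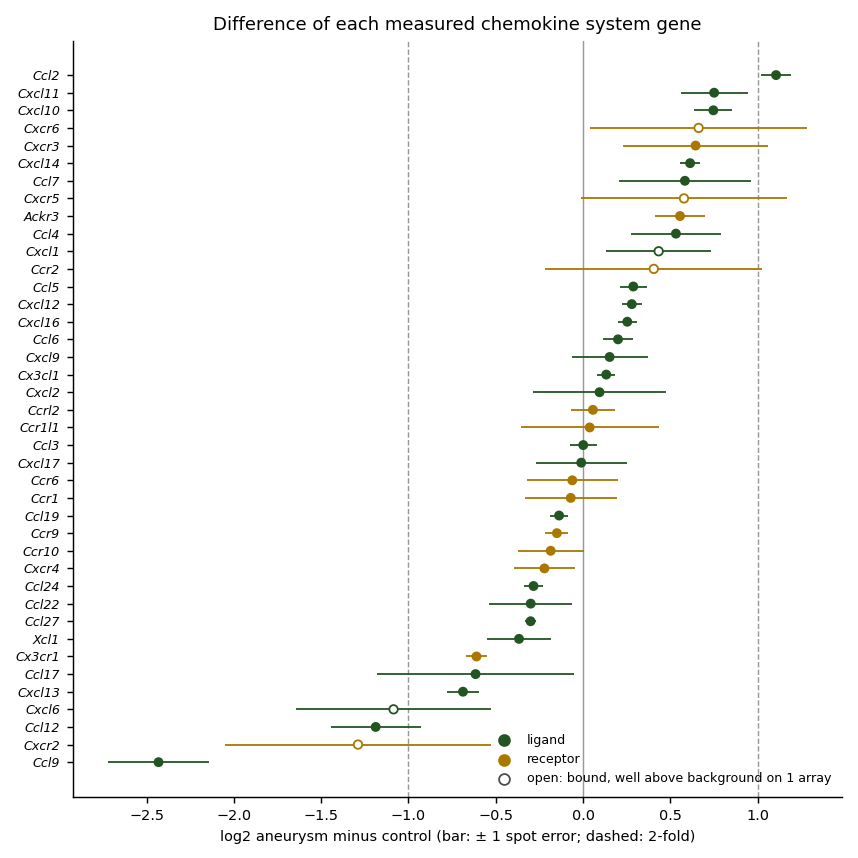
Difference of measured chemokine system genes, log2 aneurysm minus control, with bars of 1 spot error; open circles are bounds for genes well above background on 1 array only. Ccl2 is at 1.11 and Ccl9 at -2.43, and most other genes lie between the dashed lines at 2-fold.

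The ligands of Ccr2 were split. Ccl2 gave a signal of 0.146 in the control and 0.315 in the lesion, a difference of 1.11 ± 0.08 or 2.15-fold. It is among the members with most spots, and its 8 control spots ran from 0.126 to 0.169 while its 8 aneurysm spots ran from 0.293 to 0.329, so that the spots of the libraries did not overlap. Among all genes with a difference it stood 67 from the highest, and in its quartile of signal 0.467% of genes were at least 2-fold higher. With normexp the difference of Ccl2 was 0.77, under 2-fold, and with spike-in scaling it was 1.41 beside all genes at 0.30.

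Ccl7, or MCP-3, which also binds Ccr2, had signals of 0.0466 in the control and 0.0698 in the lesion (0.58 ± 0.38, and 0.09 with normexp). Ccl12, the rodent MCP-5, went the other way, from 0.0869 in the control to 0.0381 in the lesion (-1.19 ± 0.26). Its control spots at 0.0853 and 0.0885 lay clear of the aneurysm spots at 0.0374 and 0.0389. It was under 2-fold with normexp (-0.72) and with spike-in scaling (-0.88 beside all genes at 0.30). Ccl2, Ccl7 and Ccl12 lie in 1 cluster of neighbouring genes with Ccl11 and Ccl1, which were well above background on neither array. Ccl2, Ccl7 and Ccl12 are close relatives, as are Ccl3 and Ccl4 or Cxcl1 and Cxcl2, and whether the probes distinguish such copies was not tested. The receptor Ccr2 itself was dim, at 0.016 in the control, where it was not well above background, and 0.0212 in the lesion (0.41 ± 0.62), a difference smaller than its spot error.

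**Figure D3:**
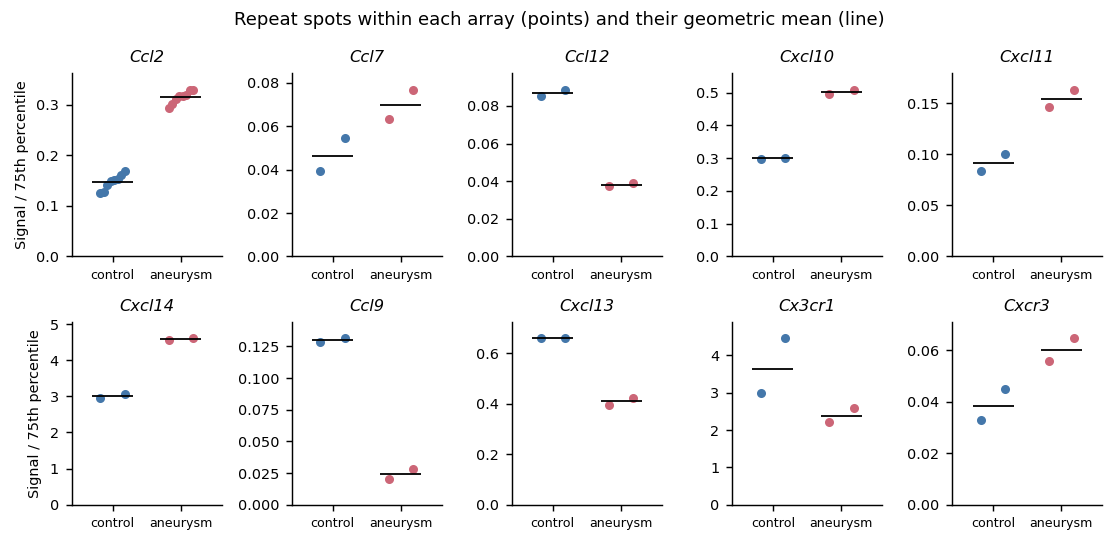
Repeat spots of 10 genes on the control array (blue) and the aneurysm array (red), as a multiple of the array's 75th percentile, with the geometric mean as a line and each axis starting at 0. The 10 genes are a chosen list, and the spots of the libraries are apart for all of them. Spots apart were common among the 41 measured genes, with 14 higher and 14 lower. The share of all genes with spots apart was not counted, so this count is not read as a trait of the family. The control spots of Cx3cr1 also differ among themselves, at 2.98 and 4.46.

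The inflammatory ligands Ccl3, Ccl4, Ccl5 and Ccl6, which attract monocytes, macrophages and T cells, differed by less than 1.5-fold. Ccl3, or MIP-1 alpha, had the same signal on both arrays, 0.14 (0.00 ± 0.08), over 10 spots in each that overlapped between the libraries. Ccl4, or MIP-1 beta, gave 0.0614 in the control and 0.0888 in the lesion (0.53 ± 0.26), but 0.13 with normexp. Ccl5, or RANTES, a product of T cells and platelets, gave 0.778 and 0.95 (0.29 ± 0.08). For Ccl6, a myeloid chemokine of rodents, the signals were 0.493 and 0.566 (0.20 ± 0.09), but its control spots at 0.376 and 0.645 lay on either side of both aneurysm spots.

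Ccl9, a myeloid chemokine of rodents and a neighbour of Ccl5, Ccl6, Ccl3 and Ccl4, had the lowest difference of all members. Its signal was 0.13 in the control and 0.0241 in the lesion, a difference of -2.43 ± 0.29, or 5.40-fold higher in the control. The control spots were at 0.128 and 0.131 and the aneurysm spots at 0.0204 and 0.0283. It remained at least 2-fold lower under each of the 10 alternatives for the values, with -1.28 under normexp. The markers that differed most beside it were those of hepatocytes (median -4.81, summed signal given above), and the 13 measured macrophage markers had a median of 0.25 with 10 of them above 0. The part of either cell type in the value of Ccl9 was not tested.

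The receptor Ccr1, which binds several of these ligands, had nearly equal signals in both libraries. It was at 0.0655 in the control and 0.0624 in the lesion (-0.07 ± 0.26), and its neighbour Ccr1l1, a close relative of Ccr1, at 0.0454 and 0.0467 (0.04 ± 0.40). For both genes the spots of the libraries overlapped.

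The interferon-induced ligands of Cxcr3, which attract activated T cells and NK cells, were higher for 2 of 3 genes. Cxcl10, or IP-10, gave 0.299 in the control and 0.502 in the lesion (0.75 ± 0.11). Cxcl11, or I-TAC, gave 0.0918 and 0.154 (0.75 ± 0.19). Both pairs of spots were apart between the libraries. Cxcl9, or MIG, was at 0.0849 and 0.0944 (0.15 ± 0.22), with overlapping spots and a value of -0.05 with normexp. With normexp Cxcl10 kept 0.60 and Cxcl11 0.37, and with spike-in scaling both passed 2-fold, at 1.05 and 1.06 beside all genes at 0.30. Their receptor Cxcr3 was at 0.0385 in the control and 0.0602 in the lesion (0.64 ± 0.42), a difference that was 0.08 with normexp. Beside these values, 8 of the 11 measured T and NK cell markers were above 0 with a median of 0.22 (-0.14 with normexp), their summed signal was 1.38 in the control and 1.54 in the lesion, and Cd2, Cd28, Klrd1 and Ncr1 were well above background on neither array. Their part in these differences was not tested.

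The genes Cxcl9, Cxcl10 and Cxcl11 are neighbours, and their promoters are shown because 2 of these 3 genes had differences of like size. Beside them stands that of Cxcl2, a neutrophil chemokine with an NF-kappaB match whose difference was 0.09. The sequences are RefSeq's, build GRCr8, from 250 bases before to 50 bases after the annotated start, 5′ to 3′ on the gene's strand. Capitals mark matches, on either strand, to the NF-kappaB consensus, the core of the interferon-stimulated response element (GAAANNGAA), the interferon-gamma activated site (TTCNNNGAA) and the AP-1 site (TGANTCA).
Cxcl10, chr14:15988816-15989115, plus strand: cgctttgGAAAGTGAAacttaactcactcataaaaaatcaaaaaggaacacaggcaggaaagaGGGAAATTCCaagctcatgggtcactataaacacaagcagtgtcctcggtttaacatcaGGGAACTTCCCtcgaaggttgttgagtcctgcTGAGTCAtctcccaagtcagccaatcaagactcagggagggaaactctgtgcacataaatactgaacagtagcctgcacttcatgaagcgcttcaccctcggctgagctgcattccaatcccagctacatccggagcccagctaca
Cxcl11, chr14:15973478-15973777, plus strand: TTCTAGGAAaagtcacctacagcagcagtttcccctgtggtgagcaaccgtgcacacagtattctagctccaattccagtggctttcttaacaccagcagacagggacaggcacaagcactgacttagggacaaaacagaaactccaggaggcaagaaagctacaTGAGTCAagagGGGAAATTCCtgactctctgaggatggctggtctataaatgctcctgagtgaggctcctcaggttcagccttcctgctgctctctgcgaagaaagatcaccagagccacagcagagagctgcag
Cxcl9, chr14:16006916-16007215, plus strand: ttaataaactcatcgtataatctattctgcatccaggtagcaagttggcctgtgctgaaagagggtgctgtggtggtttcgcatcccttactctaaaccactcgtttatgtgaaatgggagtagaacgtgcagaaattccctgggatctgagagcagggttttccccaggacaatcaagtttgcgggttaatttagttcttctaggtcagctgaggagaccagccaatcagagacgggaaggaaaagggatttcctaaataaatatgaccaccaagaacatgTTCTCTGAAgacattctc
Cxcl2, chr14:17467206-17467505, minus strand: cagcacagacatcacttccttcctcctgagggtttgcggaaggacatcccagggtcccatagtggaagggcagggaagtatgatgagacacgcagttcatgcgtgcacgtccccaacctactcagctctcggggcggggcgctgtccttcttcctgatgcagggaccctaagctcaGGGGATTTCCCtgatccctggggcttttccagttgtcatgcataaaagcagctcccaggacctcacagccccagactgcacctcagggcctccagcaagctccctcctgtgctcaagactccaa

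Cxcl10 had 3 NF-kappaB matches, the last 2 of them overlapping on opposite strands, as well as a response element core and an AP-1 match. Cxcl11 had an NF-kappaB match, an AP-1 match and an activated site match, and Cxcl9 an activated site match downstream of the start. Cxcl2 had 2 overlapping NF-kappaB matches. Of the 41 measured genes, 33 had a promoter in the RefSeq table; Ccl2, Ccl3, Ccl4, Ccl5, Ccr10, Ccr9 and Cxcr5 were among those with none there. The NF-kappaB consensus was matched in 7 of 33 (Ccl7, Ccl9, Cxcl11, Cxcl10, Cxcl2, Cxcl1 and Cxcl6) beside 7.60% of 27457 promoters of all genes. Among these 7 genes, Cxcl10 and Cxcl11 were past 1.5-fold higher and Ccl9 and Cxcl6 past 1.5-fold lower. The response element core was matched in 3 of 33 (Ccl19, Ccr2 and Cxcl10) beside 9.50% of all promoters. The activated site was matched in 6 (Ccr6, Ccl7, Ccl24, Cxcl11, Cxcl9 and Ccl17) beside 8.68%, and the AP-1 site in 5 (Cxcr6, Ccl7, Cxcl11, Cxcl10 and Cxcl14) beside 7.33%. Of the 33 genes, 5 were past 1.5-fold higher and 7 past 1.5-fold lower. The AP-1 site was matched in 4 of the 5 and 0 of the 7. The activated site was matched in 1 of the 5 and 1 of the 7, and the response element core in 1 and 0. A relation of any motif to direction was not tested. A match is a description of the letters and not a binding site.

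The neutrophil ligands of Cxcr1 and Cxcr2 were near background. Cxcl1, or CINC-1, was not well above background in the control (0.0163) and was so at 6 of 10 spots in the lesion (0.022), a difference of 0.43 ± 0.30 with overlapping spots. Cxcl2, or MIP-2, gave 0.0521 and 0.0556 (0.09 ± 0.38, and -0.14 with normexp). Cxcl6 gave 0.0182 in the control, with 1 of its 2 spots well above background, and 0.00369 in the lesion, where neither spot was. Its bound was 2.12-fold lower in the lesion (-1.09 ± 0.56). The receptor Cxcr2 gave 0.021 in the control, again with 1 of 2 spots well above background, and 0.00758 in the lesion. The bound of Cxcr2 was 2.44-fold lower there (-1.29 ± 0.76). Both bounds lay within 2 spot errors of 0. The control spots of Cxcr2, at 0.01 and 0.0439, were far apart and overlapped the aneurysm spots. With normexp its value was -0.50 and that of Cxcl6 -0.42. Cxcr1 was well above background on neither array. The 6 measured neutrophil markers had a median of -0.33 and a summed signal of 0.829 in the control and 0.921 in the lesion. Of that list Elane, Ngp and Mmp8 were not well above background, and its part in these values was not tested.

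The ligand Cxcl12, its receptor Cxcr4 and its scavenging receptor Ackr3 all differed by less than 1.5-fold. Cxcl12, or SDF-1, which holds stem cells and lymphocytes in place through Cxcr4, gave 5.44 in the control and 6.61 in the lesion (0.28 ± 0.06). A second probe of Cxcl12 gave 0.872 and 0.885 (0.02 ± 0.07), so the probes differed in size. Cxcr4 was at 0.13 and 0.112 (-0.22 ± 0.18). Ackr3, the scavenging receptor, which binds Cxcl12 and Cxcl11, was at 0.344 in the lesion against 0.234 in the control (0.56 ± 0.14, and 0.40 with normexp), with spots apart. Ccrl2, an atypical receptor that presents the attractant chemerin, was at 0.195 and 0.203 (0.06 ± 0.13).

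Cxcl16, a membrane-bound ligand that also takes up oxidised lipoprotein, gave 7.54 in the control and 8.99 in the lesion (0.25 ± 0.06). Its receptor Cxcr6, of activated T cells, was well above background in the lesion only, with signals of 0.0144 and 0.0228 (0.66 ± 0.62). Cxcl14, an epithelial and stromal chemokine, was 1.53-fold higher in the lesion, with 3.00 in the control and 4.58 in the lesion (0.61 ± 0.06). Its difference was 0.62 with normexp, and 1.44% of all genes of its quartile of signal were at least 1.5-fold higher. The 7 measured fibroblast markers stood beside it with a median of 0.55, 6 of them above 0, and a summed signal of 155 in the control and 169 in the lesion; their part was not tested. Cxcl17, a mucosal chemokine, was at 0.0645 and 0.0641 (-0.01 ± 0.26).

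Cxcl13 was lower in the lesion. This ligand, which gathers B cells into follicles, gave 0.66 in the control and 0.41 in the lesion (-0.69 ± 0.09, and -0.38 with spike-in scaling beside all genes at 0.30). Its control spots, at 0.659 and 0.66, lay above its aneurysm spots, at 0.397 and 0.422. Its receptor Cxcr5 was well above background at 1 of 2 aneurysm spots only (0.0082 in the control and 0.0175 in the lesion), a bound of 0.58. Of 5 B cell markers with a probe, only Pax5 was well above background on either array, at -0.39.

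Of the fractalkine pair, the receptor was lower in the lesion and the ligand differed little. Cx3cl1, the ligand anchored on endothelium and neurons, gave 15.4 in the control and 16.9 in the lesion (0.13 ± 0.05). With the percentile over detected probes Cx3cl1 was at 0.08. The receptor Cx3cr1, of microglia, monocytes and NK cells, gave 3.64 and 2.39 (-0.61 ± 0.06, and -0.30 with spike-in scaling beside all genes at 0.30). The control spots of Cx3cr1 at 2.98 and 4.46 were further apart than the spot error, although both lay above the aneurysm spots at 2.21 and 2.58. The 8 measured microglia markers had a median of -0.06, with 4 of 8 above 0 and a summed signal of 20.8 in the control and 20.6 in the lesion. Among them P2ry12 was at -0.39 and Trem2 at -0.38, and Tmem119 at 0.60 (0.35 with normexp). Their part in the value of Cx3cr1 was not tested.

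The remaining measured CC ligands and receptors all lay below 0 but within 2-fold. Ccl19, a ligand of Ccr7 that guides dendritic cells and T cells, gave 24.9 in the control and 22.7 in the lesion (-0.14 ± 0.05), and Ccr7 was well above background on neither array. Ccl24, an eosinophil attractant, gave 10.9 and 8.92 (-0.28 ± 0.05), while its receptor Ccr3 and the other eotaxin genes Ccl11 and Ccl26 were not well above background. Ccl27, a skin chemokine, gave 1.57 and 1.28 (-0.30 ± 0.03), over 8 spots on each array that did not overlap. Its receptor Ccr10 was at 0.0993 and 0.0873 (-0.19 ± 0.19). With spike-in scaling Ccl19, Ccl24, Ccl27 and Ccr10 were at 0.17, 0.02, 0.01 and 0.12, below the median of all genes at 0.30 there as well.

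The ligands of Ccr4, a receptor of helper and regulatory T cells, were Ccl17, at 0.031 in the control and 0.0202 in the lesion (-0.62 ± 0.56), and Ccl22, at 0.0816 and 0.0663 (-0.30 ± 0.24). Both differences are close to their spot errors. Xcl1, a ligand made by T and NK cells, gave 0.104 and 0.0803 (-0.37 ± 0.19), and a second probe of it -0.11 ± 0.54. Ccr9, a gut homing receptor, was at 1.12 and 1.01 (-0.15 ± 0.07), and Ccr6, a receptor of Th17 and B cells, at 0.0698 and 0.0669 (-0.06 ± 0.26). With spike-in scaling Ccl22, Ccr9 and Ccr6 were at 0.01, 0.16 and 0.24, again below the median of all genes, while Ccr6 was above 0 with quantile normalization.

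In all, 13 of the 54 genes were well above background on neither array, and they have no difference here. They are the ligands Ccl1, Ccl11, Ccl20, Ccl21, Ccl25, Ccl26 and Ccl28, the receptors Ccr3, Ccr4, Ccr7, Cxcr1 and Xcr1, and the atypical receptor Ackr2. Their highest signal was 0.0173 in the control and 0.0147 in the lesion, and 7 of their 24 spots on each array were at or below 0 once background was subtracted. Ackr1, Ackr4, Ccr8 and Cxcl3 had no matched probe and are not analysed here.

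**Figure D4:**
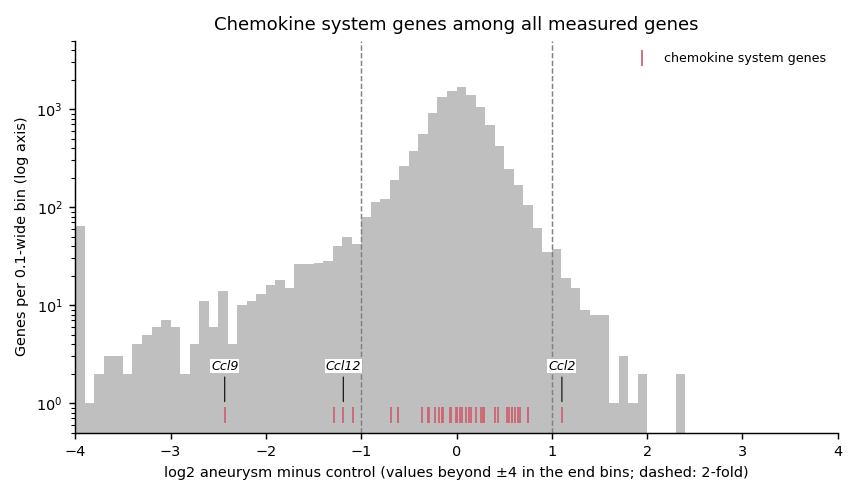
Number of genes by log2 aneurysm minus control over the 11902 genes with a difference (grey, log axis), with chemokine system genes as red ticks. Most ticks lie in the central bulk, with Ccl2 at 1.11 on the right and Ccl9 at -2.43 on the left.

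The other genes of the pathway were read from 4 lists. Of 33 measured genes of the signalling steps below the receptors, 20 were above 0 and the median was 0.10, beside 50.2% and 0.00 for all genes. The median was -0.03 with normexp. In this list 1 gene was at least 2-fold higher and 0 were at least 2-fold lower, beside 0.882% and 3.91% of all genes. That gene was Rgs1, which shuts off G protein signals of chemokine receptors in lymphocytes, at 1.04 ± 0.17 (0.61 with normexp). Plcb2, a phospholipase of leukocytes, was at -0.53. Pik3cd and Lyn, leukocyte kinases well above background in the lesion only, were at a bound of 0.54 and at 0.45 ± 0.62.

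Of 17 measured genes of chemokine processing and presentation, 12 were above 0, beside 50.2% of all genes, and the median was 0.21. None reached 1.5-fold, where the shares over all genes were 4.25% higher and 8.43% lower. The surface proteoglycan Sdc1 was at 0.37 ± 0.06, the protease Mmp2 at 0.32 ± 0.08, the sulfotransferase Ndst1 at -0.34 ± 0.13 and the elastase Mmp12 had a bound of 0.38. Of 16 measured inducers, 9 were above 0, again beside 50.2% of all genes, with a median of 0.11. Nfkbia, the NF-kappaB inhibitor that NF-kappaB itself induces, was at 0.59 ± 0.06, and the interferon factor Irf7 at 0.44, while Il13, near background, was at -0.52 ± 0.56. Il1a, Il6, Ifng, Ifnb1, Il17a and Il4 were well above background on neither array.

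Of 13 measured attractants and receptors outside the symbol rule, 11 were above 0 and the median was 0.23 (0.10 with normexp), beside 50.2% and 0.00 for all genes. Cmklr1, the chemerin receptor of macrophages and dendritic cells, was the 1 gene past 2-fold, at 1.08 ± 0.24 (0.64 with normexp), where 0.882% of all genes were at least 2-fold higher. Ltb4r, the leukotriene B4 receptor, was well above background in the lesion only (0.50 ± 0.60), Cd74, a receptor of MIF, was at 0.40 ± 0.05, and Gpr182, an atypical chemokine receptor of endothelium, at 0.34 ± 0.16 (0.12 with normexp). Ppbp, a platelet chemokine with a name outside the rule, was well above background on neither array.

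**Figure D5:**
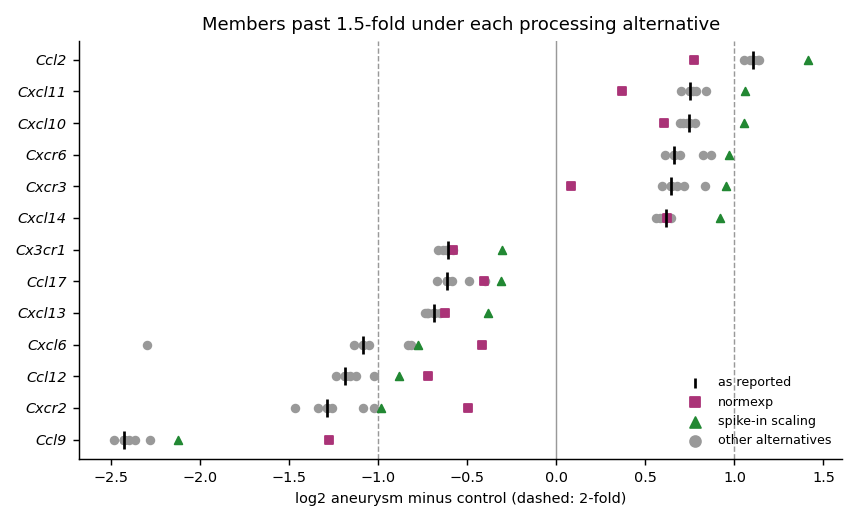
Difference of the 13 members past 1.5-fold, log2 aneurysm minus control, as reported (black bars) and under each processing alternative (squares for normexp, triangles for spike-in scaling, grey points for the others). No member changed side of 0 under an alternative that gave it a value, but Cxcr6 had no value with normexp. Cxcr3 came nearest to 0, at 0.08 with normexp.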

How the data were processed

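The authors deposited the scanner output of 2 one-colour arrays, which the file headers attribute to Feature Extraction 10.10.1.1. The deposited processed signal is a spot intensity on a linear scale, and the deposited 0 or 1 flags mark spots well above background, saturated and outlying. How background was treated in it is not stated in the sources used here.

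From the log2 intensity of each spot, the 75th percentile of its own array (58717 non-control spots) was subtracted. Outlier spots (484 in the control, 573 in the lesion) were left out, and 0 spots were saturated. Repeat spots were averaged by probe. A probe counted as well above background where at least as many spots carried that flag as did not. Of 30367 probes, 18006 were named by RefSeq accession, without version, through a gene table of a later build (GRCr8) than the array's. A gene with several probes took the brightest of those well above background. For genes that passed on a single array the difference is a bound: the dim side was set to its own value or, where larger, to the lowest detected signal of its array (0.0117 for the control, 0.00858 for the lesion). Where the dim value was the higher, the bound equals the measured difference. This was so for Ccr2, Cxcl1 and Cxcr6. The number of arrays limits the precision.

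Members past 1.5-fold and a set list of ligands and receptors were named with their values, and of each pathway list up to 4 genes of largest absolute difference; other members and the marker genes printed beside results were named after their values were seen. The members, lists and rules were chosen with earlier results of these data known. Alternatives were normexp (limma 3.58.1, offset 50), run on the processed signal, quantile normalization, median centring, the percentile over detected probes, spike-in scaling, loess centring, a stricter and an absent filter on dim genes, averaging the probes of a gene, keeping outlier spots, and thresholds of 1.5-fold and 4-fold. Some genes are left out of the text and figures and are not reported here, although the counts and medians include them. The code was tested on simulated arrays. Changes were put only into brighter genes well above background on both arrays, so changes of dim genes and bounds were not tested there.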

Additional observations from a re-analysis of the deposited data

How the results depend on the processing

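The count of members at least 2-fold higher was 1 as reported (Ccl2), 0 with normexp, 3 with spike-in scaling (Ccl2, Cxcl10 and Cxcl11), 2 with no filter on dim genes (Ccl2 and Cxcr5), 6 at a threshold of 1.5-fold and 0 at 4-fold. The count at least 2-fold lower was 4 as reported, 1 with normexp and 1 with spike-in scaling (Ccl9 each time), 2 when both arrays had to be well above background (Ccl9 and Ccl12), 6 with no filter on dim genes (Ccl1 and Ccl28 added), 7 at 1.5-fold and 1 at 4-fold. With normexp, 14 of the 37 members with a value were above 0, or 37.8% beside 40.3% of all genes. The median over the members was 0.34 with spike-in scaling, which moved the median of all genes to 0.30, and the gap between these medians was 0.04 both there and as reported. Of the 41 measured members, 25 kept their sign under every alternative that gave them a value and 7 lost it under spike-in scaling alone, where the shift of all genes fixes the sign. The other 9 had the opposite sign under another alternative, and all of these were within 1.5-fold. Of the 13 members past 1.5-fold none changed sign under an alternative that gave them a value. With normexp 6 were still past 1.5-fold, and Cxcr6 had no value. Normexp with an offset pulls the differences of dim genes toward 0 by its construction. With 1 array a group no replicate could be left out and no paired analysis was possible.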
